A study of Mus musculus with 8 samples.

Results

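Without ultraviolet exposure, EGFP+ melanocytes from mouse back skin were set against the tdTomato+ cells sorted from the same skin, across all genes. The 4 libraries used here, of 8 in the series, were EGFP+ replicates 1 and 2 and tdTomato+ replicates 1 and 2, chosen by their labels, and the 2 libraries of a replicate number come from the same mouse. All mice were C57BL/6J and carried the ROSA mTmG reporter and Tyr:CreERT2. The mTmG reporter makes membrane tdTomato in every cell until Cre recombinase removes that cassette, after which the cell and its descendants make membrane EGFP. Cre was fused to a tamoxifen-dependent receptor domain and driven by tyrosinase regulatory sequence. Mice received tamoxifen daily for 10 days from postnatal day 21, were shaved and depilated on day 50, were mock treated under normal light, and gave back skin on day 54. Mice 1 and 2 are the untreated pair. Mice 3 and 4 received UVB at 150 mJ/cm2 for 3 days, and their 4 libraries served only to estimate the spread and for the closing comparison of contrasts. EGFP+ cells are those in which Cre had acted, so a melanocyte that escaped recombination would remain among the tdTomato+ cells, and Tyr itself is tied to how the EGFP+ cells were marked. The tdTomato+ sample is a mixture of other dissociated skin cells, in which the marker genes of some cell types were low.

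Melanocytes are pigment cells of neural crest origin that settle in the basal epidermis and the hair follicle. They make melanin from tyrosine inside melanosomes, organelles related to lysosomes that are built on a protein scaffold, filled by copper enzymes and ion transporters, and carried outward along microtubules and actin. The transcription factor MITF directs this program, and keratinocytes and fibroblasts around the cell supply the growth factors to which melanocyte receptors respond. After hair is pulled, follicles re-enter growth and their pigment cells become active.

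The 4 libraries held 11186363 to 16200359 reads and 14922 to 17076 detected genes, and the 20 most abundant genes took 9.97% to 12.9% of the reads. Across genes, which are not independent replicates, r was 0.960 between EGFP+ replicates and 0.923 between tdTomato+ replicates. Between the fractions of a mouse it was 0.834 (mouse 1) and 0.800 (mouse 2). The mice differed in sex-linked transcripts. Reads of Xist numbered 477 and 1103 for mouse 1 against 2 and 2 for mouse 2, and reads of Y-linked genes together 4 and 9 against 2906 and 2253. The UVB-treated mice 3 and 4 resembled mouse 2, with 0 to 4 reads of Xist and 2257 to 3629 of Y-linked genes. UV EGFP+ replicate 2 had the fewest detected genes of the 8 libraries, 11186. The part of either in the shared spread or in the closing comparison was not tested. Values below are normalized reads, that is reads divided by 1 scaling factor per library, and are given for mouse 1 and mouse 2 in that order. Differences are EGFP+ minus tdTomato+ in log2 units of the value plus 1, with the standard error (SE) of the fit, for n = 2 mice per group. A ratio, given where the lower group held 1 to 3 reads, is the higher group over the lower. "Called" means an adjusted p under 0.05 in limma. Where a count above 0 moved by more than 1.5 times, or a call was lost, with 1 library left out, the values are listed. Their order is EGFP+ replicate 1, EGFP+ replicate 2, tdTomato+ replicate 1, tdTomato+ replicate 2. Counts of 0 are those of the fit of all 8 libraries, and some such lists had calls in other settings. The fit of only the 4 libraries without UV has 2 residual degrees of freedom.

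Of 18070 genes tested, 3468 were called (19.2%), 1206 of them higher (6.67%) and 2262 lower (12.5%) in EGFP+ cells. Each called gene lay on the same side in both mice, with no overlap between the 2 EGFP+ and the 2 tdTomato+ libraries. The calls were made on these same libraries, so this agreement is no separate support for them. Large changes lay mostly on the tdTomato+ side, with 274 genes at least 4 log2 units higher and 1156 at least 4 lower. Among called genes, 56 had 0 reads in tdTomato+ and 363 had 0 reads in EGFP+ cells. The median over all tested genes was -0.27, and -0.11 with genes of 0 reads in a group set at their bound. The split of calls depended on scaling: 34.8% of called genes were higher here, 51.3% after quantile normalization (2013 higher and 1909 lower), 1804 higher and 1806 lower after rescaling without the 20 most abundant genes, and 38.1% with TMM scaling. Quantile normalization and the rescaling raised the median over genes by 0.35 and 0.27, so a modest difference is read relative to that shift. The TMM run raised it by 0.16, but it also changed the unit of the values to which 1 was added. That rise, and any call lost with TMM scaling, therefore cannot be put down to scaling alone. In edgeR the median rose by 0.015. The count of called genes was 1810, 1370, 3164 and 2088 with 1 library left out.

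**Figure D1:**
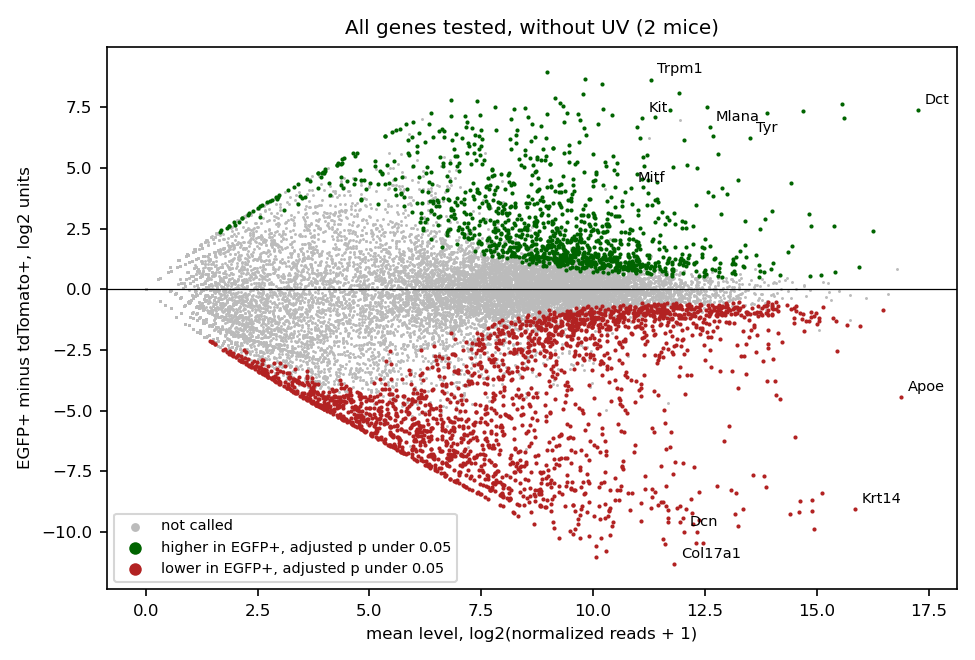
Each point is 1 of 18070 tested genes, with its mean level over the 4 libraries without UV on the x axis (log2 of normalized reads plus 1) and its EGFP+ minus tdTomato+ difference on the y axis (log2 units). Green points (1206) were called higher and red points (2262) lower in EGFP+ cells, grey points were not called, and the red cloud reaches -11.33 (Col17a1) while the green one reaches 8.97 (Wscd1).

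The pigment genes separated the samples as the labels say. All 7 tested genes for melanin enzymes and the melanosome matrix were higher in EGFP+ cells, with a median difference of 7.35 against -0.27 over all genes. Dct, dopachrome tautomerase, which converts dopachrome on the way to eumelanin, had 282000 and 345160 normalized reads in EGFP+ and 2733 and 1270.3 in tdTomato+ cells, a difference of 7.39 ± 0.35 (SE, adjusted p = 1.27e-05). Both EGFP+ libraries stood far above both tdTomato+ libraries. Tyr, which encodes tyrosinase, the enzyme of the first step, had 24200 and 21330 in EGFP+ against 469 and 196 in tdTomato+ cells, a difference of 6.22 ± 0.45 (adjusted p = 7.05e-05). Tyrp1, a relative of tyrosinase, read 103450 and 89462 in EGFP+ against 894 and 265 in tdTomato+ cells (7.62 ± 0.52, adjusted p = 5.67e-05). Mlana, a small membrane protein of early melanosomes, had 12179 and 12447 in EGFP+ against 145 and 97.1 in tdTomato+ cells (6.69 ± 0.30, adjusted p = 1.02e-05). Pmel, whose amyloid fibres form the melanosome scaffold, had 91684 and 105070 in EGFP+ against 1104 and 488 in tdTomato+ cells (7.06 ± 0.44, adjusted p = 3.57e-05). Gpr143, the melanosomal receptor altered in ocular albinism, had 630.4 and 554 in EGFP+ against 10.8 and 0 in tdTomato+ cells (7.43 ± 1.07, adjusted p = 0.0022). The call of Gpr143 (adjusted p = 0.0589 and 0.063) was lost without EGFP+ replicate 1 or EGFP+ replicate 2. Gpr143 (adjusted p = 0.0562) lost the call with only the 4 libraries in the fit. The summed tdTomato+ level of these 7 genes was 1.06% of the EGFP+ level in mouse 1 and 0.394% in mouse 2. In bulk RNA, fewer cells of a type and less RNA per cell cannot be told apart, so these shares do not give a number of melanocytes.

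The promoters of Tyr, Tyrp1, Dct, Mlana, Pmel and Trpm1 were searched for CATGTG and CACGTG, which MITF is known to bind. Only windows with a match were to be shown, so a motif in those shown is not a finding. Tyrp1 held CATGTG 46 bases before its start and is not shown. Mlana and Pmel had no usable window. Trpm1, Tyr and Dct are shown with the sequence before their start. The sequences are from RefSeq on GRCm38.p6, run 5′ to 3′ on the coding strand and end at the base before the annotated start. Capitals mark each CATGTG on either strand (CACATG is the same motif read on the other strand), which lies 21 bases before the start of Tyr, 232 and 150 before that of Dct and 141 before the first listed start of Trpm1. CACGTG was not among the letters of these 3 windows, and lay 229 bases before the second listed start of Trpm1, whose window is not shown. The Tyr window is chr7:87493513-87493612 (minus strand), the Dct window chr14:118052247-118052488 (minus strand) and the Trpm1 window chr7:64153684-64153834 (plus strand).
Tyr: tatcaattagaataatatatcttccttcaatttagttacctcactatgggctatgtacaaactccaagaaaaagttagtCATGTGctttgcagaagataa
Dct: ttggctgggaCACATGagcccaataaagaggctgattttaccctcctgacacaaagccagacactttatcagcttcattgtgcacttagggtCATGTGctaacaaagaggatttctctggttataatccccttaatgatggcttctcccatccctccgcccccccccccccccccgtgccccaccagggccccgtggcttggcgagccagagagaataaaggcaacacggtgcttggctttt
Trpm1: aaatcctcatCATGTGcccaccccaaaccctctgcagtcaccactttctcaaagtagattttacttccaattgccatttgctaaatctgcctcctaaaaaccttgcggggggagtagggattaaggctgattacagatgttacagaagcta
CATGTG is common. It occurred within 250 bases before the start in 12.3% of 32851 RefSeq promoters, in 8.79% of those of tested genes, in 9.01% of those of genes called higher and in 7.98% of those of genes called lower, which is given as a description with no test.

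**Figure D2:**
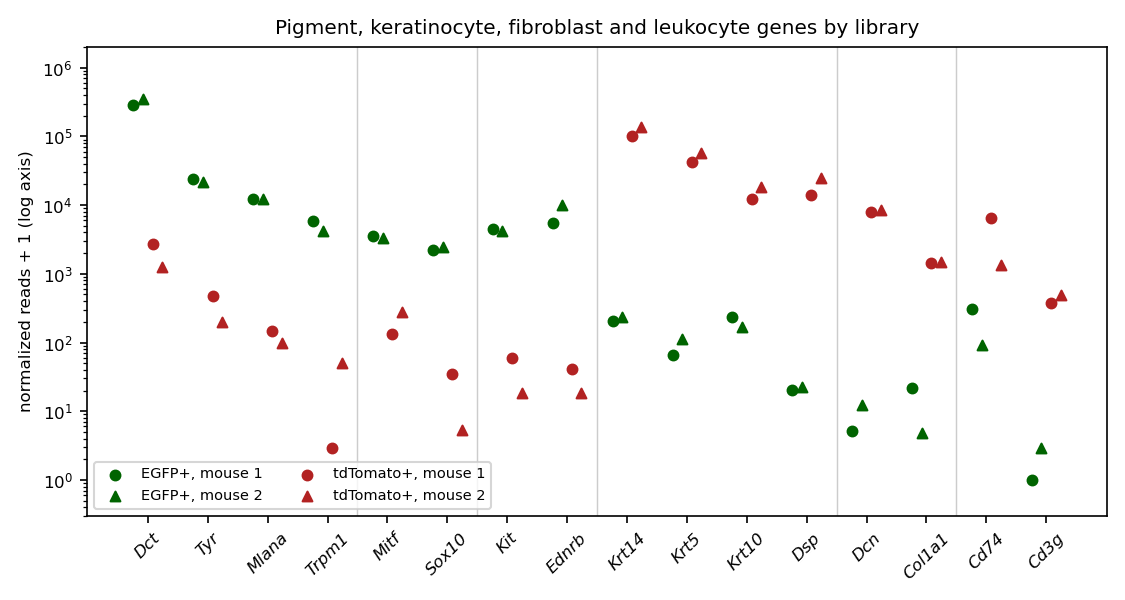
Normalized reads plus 1 (log axis) of 16 genes in the 2 EGFP+ (green) and 2 tdTomato+ (red) libraries, circles for mouse 1 and triangles for mouse 2. Pigment genes, their regulators and receptors are high in green, from Dct down to Sox10, and keratinocyte, fibroblast and leukocyte genes are high in red, with the tdTomato+ libraries further apart for Trpm1 and Cd74 than for Krt14.

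Transporters and the carriage of melanosomes showed the same direction. Of 8 tested melanosome transporters and channels, 4 were higher (3, 2, 4 and 4 with 1 library left out) and 0 lower. Slc45a2, a transporter that sets melanosome pH, had 6342 and 7018 in EGFP+ against 36.2 and 41.4 in tdTomato+ cells (7.39 ± 0.39, adjusted p = 1.72e-05). Slc24a5, a potassium-dependent sodium/calcium exchanger, read 4665 and 3709.9 in EGFP+ against 71.4 and 41.4 in tdTomato+ cells (6.23 ± 0.52, adjusted p = 0.000146). Oca2, an anion channel of the melanosome, had 116 and 281 in EGFP+ against 0 and 2.85 in tdTomato+ cells (a ratio of 167 (95% exact interval 45.9 to 1380.3), adjusted p = 0.00534). Trpm1, a cation channel whose locus also holds the microRNA miR-211, was among the largest rises, at 5793 and 4154 in EGFP+ against 1.96 and 50 in tdTomato+ cells (8.64 ± 1.09, adjusted p = 0.00121). The call of Oca2 (adjusted p = 0.082) was lost without EGFP+ replicate 2. The call of Trpm1 (adjusted p = 0.0503 and 0.0515) was lost without EGFP+ replicate 1 or EGFP+ replicate 2. Trpm1 (adjusted p = 0.0524) lost the call with only the 4 libraries in the fit. The copper pump gene Atp7a, which loads tyrosinase, was not called (0.74 ± 0.56, adjusted p = 0.408), nor were Tpcn2, Mfsd12 and Slc7a11. Of 23 genes for melanosome sorting and transport, 9 were higher (5, 3, 6 and 5 with 1 library left out) and 0 lower, with a median of 1.20. Called higher were 50% of the transporters and channels and 39.1% of the sorting and transport list, against 6.67% over all genes. The 3 proteins that hold melanosomes on actin at the cell edge led this list. Mlph had 1426 and 1153 in EGFP+ against 9.78 and 9.99 in tdTomato+ cells (6.88 ± 0.41, adjusted p = 2.53e-05), Myo5a 4224 and 6102 in EGFP+ against 446 and 389.6 in tdTomato+ cells (3.60 ± 0.28, adjusted p = 0.000104) and Rab27a 1282 and 1181 in EGFP+ against 64.6 and 35.7 in tdTomato+ cells (4.65 ± 0.40, adjusted p = 0.000157). Ap3b1, a subunit of the adaptor that sorts tyrosinase, was also higher (1098 and 1191 in EGFP+ against 327 and 367 in tdTomato+ cells, 1.72 ± 0.27, adjusted p = 0.00342). The call of Ap3b1 (adjusted p = 0.0521) was lost without EGFP+ replicate 2.

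Among transcription factors, regulators of the crest lineage and of epithelium went opposite ways. Mitf had 3596 and 3355 in EGFP+ against 134 and 278 in tdTomato+ cells, a difference of 4.16 ± 0.42 (adjusted p = 0.000371). The files hold 1 value for each gene, and Mitf isoforms were not analysed here. Of its 3 relatives in the MiT family, 1 was called. Tfeb, a regulator of lysosomal genes, was higher at 397 and 724 in EGFP+ against 46 and 55.7 in tdTomato+ cells (3.38 ± 0.50, adjusted p = 0.00263), whereas Tfe3 had 296 and 360.3 in EGFP+ against 250.39 and 234 in tdTomato+ cells (0.43 ± 0.41, 95% interval -0.51 to 1.37, adjusted p = 0.519). Tfec had 0 reads in 3 of the 4 libraries and 1 read in the other. The call of Tfeb (adjusted p = 0.0516) was lost without EGFP+ replicate 2. Of 19 tested neural crest and melanocyte factors, 10 were higher (8, 6, 10 and 8 with 1 library left out) and 2 lower (0, 0, 1 and 0 with 1 library left out, 1 with only the 4 libraries in the fit, 1 after rescaling without the 20 most abundant genes), with a median of 2.98. Sox10, which maintains crest and glial fate and acts with MITF, had 2246 and 2454 in EGFP+ against 34.2 and 4.28 in tdTomato+ cells (7.43 ± 0.74, adjusted p = 0.000349). Pax3, a paired-box factor upstream of Mitf, had 5072 and 5478 in EGFP+ against 117 and 11.4 in tdTomato+ cells (7.10 ± 0.84, adjusted p = 0.000886). Irf4, a factor that acts on Tyr, had 637 and 614 in EGFP+ against 2.93 and 9.99 in tdTomato+ cells (6.57 ± 0.83, adjusted p = 0.00119). Ets1 was at 2632 and 2620.3 in EGFP+ against 275 and 228 in tdTomato+ cells (3.38 ± 0.28, adjusted p = 0.000145) and Foxd3, an early crest factor, at 262 and 312 in EGFP+ against 4.89 and 0 in tdTomato+ cells (6.88 ± 1.03, adjusted p = 0.00263). Sox5, Mef2c, Zeb2, Tbx2 and Bhlhe41 made up the rest of the 10. Sox9, a hair follicle stem cell factor as well as a crest factor, and Tfap2a, which keratinocytes also express, were lower, at 60.7 and 43.7 in EGFP+ against 2489 and 3705 in tdTomato+ cells for Sox9 (-5.85 ± 0.85, adjusted p = 0.00229) and 358 and 512 in EGFP+ against 840.2 and 1552 in tdTomato+ cells for Tfap2a (-1.41 ± 0.37, adjusted p = 0.0285). The call of Sox9 (adjusted p = 0.0551, 0.0745, 0.0584 and 0.089) was lost with any 1 of the 4 libraries left out. The calls of Tfap2a (adjusted p = 0.193, 0.104 and 0.169) and Tbx2 (adjusted p = 0.0909, 0.134 and 0.0546) were lost without EGFP+ replicate 1, EGFP+ replicate 2 or tdTomato+ replicate 2. The call of Foxd3 (adjusted p = 0.0548) was lost without EGFP+ replicate 2. The call of Mef2c (adjusted p = 0.0612 and 0.0666) was lost without EGFP+ replicate 2 or tdTomato+ replicate 2. The call of Zeb2 (adjusted p = 0.0598, 0.0706 and 0.0533) was lost without EGFP+ replicate 1, EGFP+ replicate 2 or tdTomato+ replicate 1. Tfap2a (adjusted p = 0.112) and Tbx2 (adjusted p = 0.0883) lost the call with only the 4 libraries in the fit. Tfap2a (adjusted p = 0.0639) lost the call after rescaling without the 20 most abundant genes. Tfap2b, Snai2, Hes1, Lef1, Gli3, Sox2 and Pou3f2 were not called. Hes1 was called lower with mouse as a block (adjusted p = 0.00252), in edgeR (adjusted p = 0.0346) and in DESeq2 (adjusted p = 0.0249). Sox2 was called higher after quantile normalization (adjusted p = 0.0356). Of the neural crest and melanocyte factors 52.6% were higher and 10.5% lower in the main fit, against 6.67% and 12.5% over all genes.

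Epidermal and follicular factors were mostly lower in EGFP+ cells. Their share called lower was 83.3%, and that of dermal factors 35.7%, against 12.5% over all genes. Of 24 tested, 20 were lower (13, 12, 14 and 10 with 1 library left out) and 0 higher, with a median of -5.47, or -5.23 with genes of 0 reads at their bound. Trp63, the p63 factor that maintains stratified epithelium, had 3.33 and 6.66 in EGFP+ against 3667 and 4917 in tdTomato+ cells (-9.53 ± 0.71, adjusted p = 7.67e-05). Ehf, an epithelial ETS factor, had 1.66 and 10.5 in EGFP+ against 1275 and 1447 in tdTomato+ cells (-7.94 ± 0.84, adjusted p = 0.000503). Gata6, a factor of the upper follicle and sebaceous duct, had 0 reads in both EGFP+ libraries against 205 and 238 normalized reads in tdTomato+ cells, at least 164-fold lower over the group (adjusted p = 0.00131). Of 14 dermal factors, 5 were lower (2, 1, 7 and 4 with 1 library left out, 3 after quantile normalization) and 0 higher. Meox2, a mesenchymal homeobox factor, had 0 and 1.9 in EGFP+ against 143 and 183 in tdTomato+ cells, a ratio of 179 (95% exact interval 49.1 to 1487) between the groups (adjusted p = 0.00398). Twist2, a dermal fibroblast factor, had 0 reads in EGFP+ and 80.2 and 28.5 in tdTomato+ cells, at least 44.5-fold lower (adjusted p = 0.00687). The call of Twist2 (adjusted p = 0.0505) was lost without EGFP+ replicate 2.

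Of 31 tested receptors on melanocytes and their relatives, 3 were higher (6 after quantile normalization, 6 after rescaling without the 20 most abundant genes, 5 in DESeq2) and 10 lower (6, 6, 5 and 5 with 1 library left out, 4 with only the 4 libraries in the fit), and 18 were not called. The shares were 9.68% and 32.3% against 6.67% and 12.5% over all genes. The 3 are among the receptors known to steer melanocytes, and the list was drawn up of such receptors and their relatives. Kit, the receptor for Kit ligand, had 4429 and 4202 in EGFP+ against 57.7 and 17.1 in tdTomato+ cells (7.05 ± 0.48, adjusted p = 5.43e-05). Ednrb, the endothelin B receptor, had 5522 and 9951 in EGFP+ against 40.1 and 17.1 in tdTomato+ cells (8.09 ± 0.42, adjusted p = 1.66e-05). Mc1r, the melanocortin receptor that switches pigment type, had 887 and 889 in EGFP+ against 0.978 and 34.3 in tdTomato+ cells (6.73 ± 1.27, adjusted p = 0.00763). Ednra, the endothelin A receptor, lay the other way at 0 and 3.8 in EGFP+ against 105 and 77.1 in tdTomato+ cells (-5.37 ± 1.09, adjusted p = 0.0107). Egfr, the epidermal growth factor receptor, had 2.5 and 0 in EGFP+ against 745 and 1083 in tdTomato+ cells, a ratio of 663 (95% exact interval 227 to 3219.9) (adjusted p = 0.00033). Fgfr2, the receptor for keratinocyte growth factor, had 4.99 and 4.75 in EGFP+ against 2030.5 and 1353 in tdTomato+ cells (-8.14 ± 0.75, adjusted p = 0.00025). Fgfr1 was lower by less, at 214 and 264 in EGFP+ against 707 and 765 in tdTomato+ cells (-1.63 ± 0.28, adjusted p = 0.00541). F2rl1, the protease-activated receptor that keratinocytes use to take up melanosomes, had 0 reads in EGFP+ and 284 and 424 in tdTomato+ cells, at least 256-fold lower (adjusted p = 0.00131). The call of Mc1r (adjusted p = 0.109, 0.122 and 0.0625) was lost without EGFP+ replicate 1, EGFP+ replicate 2 or tdTomato+ replicate 1. The call of Ednra (adjusted p = 0.0602 and 0.0657) was lost without tdTomato+ replicate 1 or tdTomato+ replicate 2. Mc1r (adjusted p = 0.0818) and Ednra (adjusted p = 0.0632) lost the call with only the 4 libraries in the fit. Met, the receptor for hepatocyte growth factor, had 672 and 1347 in EGFP+ against 453 and 587 in tdTomato+ cells and was not called (0.88 ± 0.38, 95% interval 0.02 to 1.75, adjusted p = 0.153). Erbb3, which binds neuregulins, had 143 and 352 in EGFP+ against 58.7 and 58.5 in tdTomato+ cells (1.92 ± 0.64, adjusted p = 0.0743). It was called higher after quantile normalization (adjusted p = 0.0249), after rescaling without the 20 most abundant genes (adjusted p = 0.0473) and in DESeq2 (adjusted p = 0.0107).

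Most called ligands were lower in EGFP+ cells. Of 43 tested ligands and secreted antagonists acting on melanocytes, 24 were lower (12, 10, 17 and 12 with 1 library left out) and 3 higher (1, 1, 2 and 2 with 1 library left out) in EGFP+ cells, with a median of -3.57. Shares of the list were 55.8% lower and 6.98% higher, against 12.5% and 6.67% over all genes. Kitl, the ligand of Kit, had 74 and 121 in EGFP+ against 1209 and 938 in tdTomato+ cells (-3.48 ± 0.91, adjusted p = 0.0306). Edn1, an endothelin gene, had 0.832 and 0 in EGFP+ against 247 and 258 in tdTomato+ cells, a ratio of 568 (95% exact interval 101.37 to 22477) (adjusted p = 0.00153). Edn2 had 0 reads in EGFP+ and 531 and 664 in tdTomato+ cells, at least 439.6-fold lower (adjusted p = 0.000341). Edn3, the endothelin known from melanoblast development, had 0 reads in EGFP+ and 9.78 and 114 in tdTomato+ cells, at least 39.2-fold lower (adjusted p = 0.0374), with the higher value in mouse 2. Hgf, the ligand of Met, likewise had 0 reads in EGFP+ and 15.7 and 37.1 in tdTomato+ cells (at least 18.3-fold lower, adjusted p = 0.0127). Wnt10a and Wnt4, epidermal Wnt ligands, had 1.66 and 3.8 in EGFP+ against 1141 and 1359 in tdTomato+ cells (-8.44 ± 0.68, adjusted p = 0.000114) and 17.5 and 21.9 in EGFP+ against 1291 and 1523 in tdTomato+ cells (-6.09 ± 0.50, adjusted p = 0.00013). Sfrp1, a secreted Wnt antagonist, had 20.8 and 19 in EGFP+ against 1803 and 3144 in tdTomato+ cells (-6.83 ± 0.44, adjusted p = 4.06e-05). The 3 genes that went against the list were Dkk3, Gdnf and Pomc. Dkk3, a member of the Dickkopf family, had 3659 and 4771 in EGFP+ against 895 and 1069 in tdTomato+ cells (2.09 ± 0.25, adjusted p = 0.00098). Gdnf, a neurotrophic ligand, had 561 and 554 in EGFP+ against 73.4 and 35.7 in tdTomato+ cells (3.42 ± 0.61, adjusted p = 0.00588), while its receptor subunit Gfra1 was lower in EGFP+ cells (74 and 39 in EGFP+ against 219 and 394 in tdTomato+ cells, -2.43 ± 0.68, adjusted p = 0.0398). Pomc, the precursor of melanocortins, was low in both samples, with 44.1 and 18.1 in EGFP+ against 0 and 2.85 in tdTomato+ cells (a ratio of 27.5 (95% exact interval 7.35 to 232), adjusted p = 0.0474). The calls of Kitl (adjusted p = 0.232, 0.176, 0.22 and 0.218), Gfra1 (adjusted p = 0.0746, 0.177, 0.0633 and 0.168) and Pomc (adjusted p = 0.184, 0.11, 0.125 and 0.0574) were lost with any 1 of the 4 libraries left out. The calls of Edn3 (adjusted p = 0.191, 0.212 and 0.221) and Hgf (adjusted p = 0.0705, 0.0819 and 0.0532) were lost without EGFP+ replicate 1, EGFP+ replicate 2 or tdTomato+ replicate 2. The call of Gdnf (adjusted p = 0.0633 and 0.0712) was lost without EGFP+ replicate 1 or EGFP+ replicate 2. Kitl (adjusted p = 0.076), Gfra1 (adjusted p = 0.0596) and Pomc (adjusted p = 0.0776) lost the call with a pseudocount of 0.1. Edn3 (adjusted p = 0.106), Gfra1 (adjusted p = 0.073) and Pomc (adjusted p = 0.107) lost the call with only the 4 libraries in the fit. Edn3 (-1.93, adjusted p = 0.0934) lost the call with TMM scaling, where the unit of the values also changed. Hgf (adjusted p = 0.0787) and Pomc (adjusted p = 0.114) lost the call in edgeR. Gfra1 (adjusted p = 0.054) lost the call after quantile normalization. Gfra1 (adjusted p = 0.0634) lost the call after rescaling without the 20 most abundant genes. Pomc (adjusted p = 0.062) lost the call with no filter. Blocking on mouse ended the calls of Gfra1 (adjusted p = 0.0746) and Pomc (adjusted p = 0.0901).

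**Figure D3:**
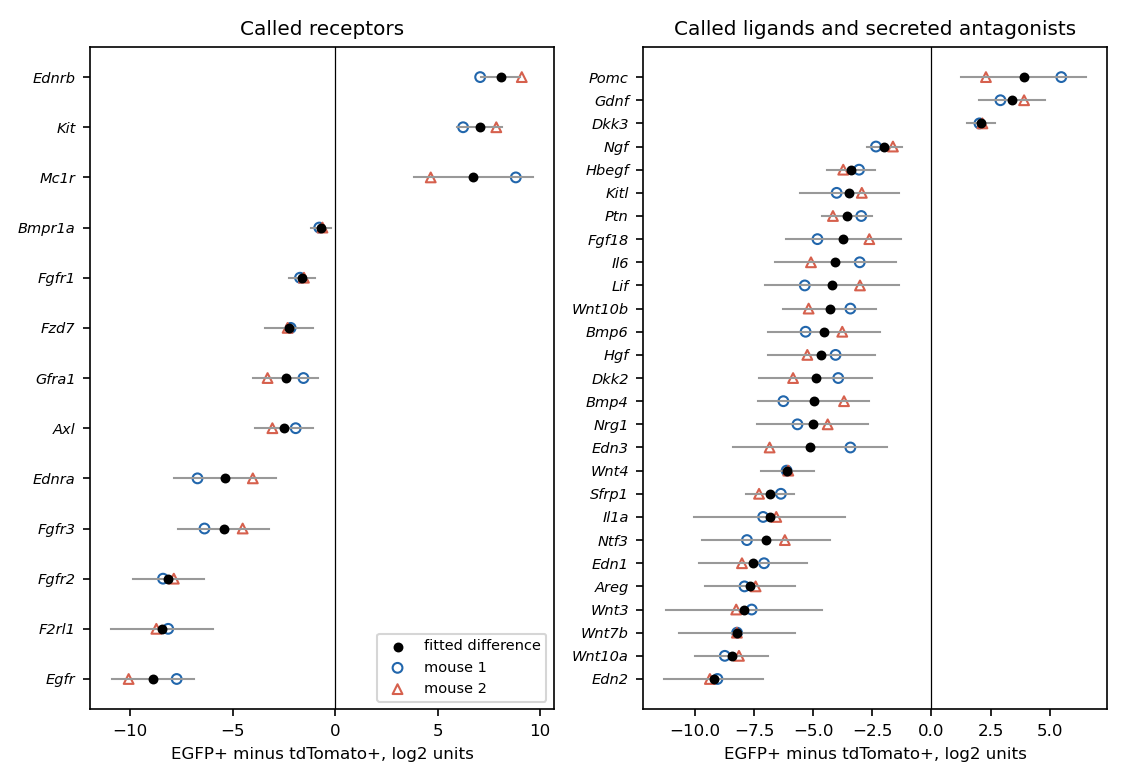
EGFP+ minus tdTomato+ difference (log2 units) of the 13 called receptors (left) and 27 called ligands and secreted antagonists (right). Black points are the fitted differences with their 95% intervals, open circles mouse 1 and open triangles mouse 2. Only Ednrb, Kit and Mc1r among the called receptors and Pomc, Gdnf and Dkk3 among the called ligands lie to the right of 0.

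Signalling from the melanocortin receptor runs through cyclic AMP to Mitf. Of 26 tested genes of the pathway, 8 were higher (5, 4, 6 and 4 with 1 library left out) and 4 lower (2, 1, 2 and 2 with 1 library left out, 2 with a pseudocount of 0.1). These were 30.8% higher and 15.4% lower, against 6.67% and 12.5% over all genes. Gnas, the stimulatory G protein subunit, had 30250 and 31547 in EGFP+ against 11345 and 10255 in tdTomato+ cells (1.52 ± 0.16, adjusted p = 0.000464), and Prkar1a, a regulatory subunit of protein kinase A, 12969 and 13939 in EGFP+ against 5378 and 5309.6 in tdTomato+ cells (1.33 ± 0.15, adjusted p = 0.000571). Crtc3, a coactivator of CREB, had 735 and 886 in EGFP+ against 132 and 111 in tdTomato+ cells (2.72 ± 0.38, adjusted p = 0.0019). Adcy2, an adenylyl cyclase, had 487 and 782 in EGFP+ against 13.7 and 14.3 in tdTomato+ cells (5.37 ± 0.81, adjusted p = 0.00279). The phosphodiesterases that degrade cyclic AMP differed in direction. Pde4d was higher at 574 and 549 in EGFP+ against 71.4 and 31.4 in tdTomato+ cells (3.54 ± 0.52, adjusted p = 0.00234), and Pde4b lower at 1861 and 2598 in EGFP+ against 6880 and 6274 in tdTomato+ cells (-1.58 ± 0.24, adjusted p = 0.00301). The call of Adcy2 (adjusted p = 0.0673 and 0.0588) was lost without EGFP+ replicate 2 or tdTomato+ replicate 2. The call of Pde4b (adjusted p = 0.0545 and 0.0574) was lost without tdTomato+ replicate 1 or tdTomato+ replicate 2.

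Most adhesion genes of keratinocytes were lower in EGFP+ cells. Of 14 tested desmosome genes, the junctions that rivet keratinocytes together, 12 were lower and 0 higher in EGFP+ cells, with a median of -7.67. Dsp, the desmosomal linker to keratin, had 19.1 and 21.9 in EGFP+ against 13806 and 25053 in tdTomato+ cells (-9.76 ± 0.33, adjusted p = 3.64e-06). Perp, a tetraspan desmosome protein, had 149 and 75.1 in EGFP+ against 55596 and 64998 in tdTomato+ cells (-9.14 ± 0.36, adjusted p = 7.78e-06). Jup, plakoglobin, which also serves other cadherins, was lower by less, at 236 and 244 in EGFP+ against 3774 and 4286 in tdTomato+ cells (-4.06 ± 0.26, adjusted p = 3.73e-05). Of 17 genes for hemidesmosomes and basement membrane, 8 were lower (7, 5, 5 and 5 with 1 library left out) and 2 higher (1, 0, 2 and 1 with 1 library left out, 1 with only the 4 libraries in the fit, 1 with a pseudocount of 0.1). Col17a1, the collagen of hemidesmosomes, had 1.66 and 1.9 in EGFP+ against 6558 and 7843 in tdTomato+ cells and showed the largest fall of any gene named by size (-11.33 ± 0.66, adjusted p = 2.53e-05). Itgb1, the integrin beta 1 chain, and Nid1, a basement membrane linker, were higher, Itgb1 at 5792 and 6299.8 in EGFP+ against 3112 and 2555 in tdTomato+ cells (1.10 ± 0.18, adjusted p = 0.00384) and Nid1 at 483 and 427 in EGFP+ against 149 and 18.6 in tdTomato+ cells (3.07 ± 0.86, adjusted p = 0.039). Of 20 cadherins and immunoglobulin adhesion molecules, 7 were higher (3, 2, 5 and 5 with 1 library left out, 4 with a pseudocount of 0.1) and 2 lower (1, 1, 1 and 1 with 1 library left out, 1 with only the 4 libraries in the fit, 1 after rescaling without the 20 most abundant genes, 1 with a pseudocount of 0.1, 1 with no filter). Epcam, an epithelial adhesion molecule, had 37.4 and 5.7 in EGFP+ against 8657 and 10202 in tdTomato+ cells (-9.19 ± 0.68, adjusted p = 7.67e-05). Cdh3, P-cadherin, which basal keratinocytes and follicles are known to make, was higher in EGFP+ cells at 1534 and 2471 in EGFP+ against 242 and 419.6 in tdTomato+ cells (2.61 ± 0.41, adjusted p = 0.0031). Ncam1 and Nrcam, adhesion molecules of neural cells, were higher, Ncam1 at 368 and 599 in EGFP+ against 60.6 and 67.1 in tdTomato+ cells (2.86 ± 0.45, adjusted p = 0.00325) and Nrcam at 832 and 1183 in EGFP+ against 92.9 and 28.5 in tdTomato+ cells (4.24 ± 0.62, adjusted p = 0.00238). The calls of Itgb1 (adjusted p = 0.0535) and Nrcam (adjusted p = 0.0681) were lost without EGFP+ replicate 2. The call of Nid1 (adjusted p = 0.235, 0.232 and 0.146) was lost without EGFP+ replicate 1, EGFP+ replicate 2 or tdTomato+ replicate 2. The call of Cdh3 (adjusted p = 0.0747 and 0.0612) was lost without EGFP+ replicate 2 or tdTomato+ replicate 1. Nid1 (adjusted p = 0.17) lost the call with only the 4 libraries in the fit. Nid1 (adjusted p = 0.0549) lost the call with a pseudocount of 0.1. Of desmosome genes 85.7% were lower, and of hemidesmosome and basement membrane genes 11.8% were higher and 47.1% lower. For cadherins and immunoglobulin molecules it was 35% higher and 10% lower. Over all genes it was 6.67% and 12.5%, so the last share lower is near that of all genes.

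Some neural and glial genes were higher in EGFP+ cells, some were lower, and most were not called. Of 35 neuronal and synaptic vesicle genes, 7 were higher (2, 2, 6 and 5 with 1 library left out, 3 with only the 4 libraries in the fit) and 3 lower (1, 0, 4 and 2 with 1 library left out). The other 25 were not called, and the median was 0.26. Shares were 20% higher and 8.57% lower, against 6.67% and 12.5% over all genes. Sncg, Elavl4 and Ank3 were the 3 lower genes, and only their count was followed across settings. Syngr1, a synaptic vesicle protein, had 13873 and 12044 in EGFP+ against 210.3 and 126 in tdTomato+ cells (6.30 ± 0.28, adjusted p = 1.02e-05). Tubb3, the neuronal beta-tubulin, had 98.1 and 61.8 in EGFP+ cells and 0 reads in both tdTomato+ libraries, at least 46.6-fold higher (adjusted p = 0.00189). Of 17 Schwann cell and glia genes, 6 were higher (2, 1, 5 and 3 with 1 library left out, 3 with only the 4 libraries in the fit) and 2 lower (0, 0, 0 and 0 with 1 library left out, 1 with mouse as a block, 1 with only the 4 libraries in the fit, 1 after quantile normalization, 1 after rescaling without the 20 most abundant genes, 1 with a pseudocount of 0.1). The glial shares were 35.3% higher and 11.8% lower. Fabp7, a glial fatty acid binding protein, had 1265 and 901 in EGFP+ against 32.3 and 9.99 in tdTomato+ cells (5.80 ± 0.69, adjusted p = 0.00091). Mbp, myelin basic protein, lay the other way at 74.9 and 31.4 in EGFP+ against 387 and 354 in tdTomato+ cells (-2.91 ± 0.83, adjusted p = 0.0414). Of 47 axon guidance receptors and ligands, 3 were higher (1, 1, 2 and 1 with 1 library left out, 6 after quantile normalization) and 11 lower (4, 4, 3 and 2 with 1 library left out, 17 in DESeq2), shares of 6.38% and 23.4% against 6.67% and 12.5% over all genes. Plxnc1, the receptor for semaphorin 7A, had 1968 and 2739 in EGFP+ against 16.6 and 1.43 in tdTomato+ cells (8.47 ± 0.79, adjusted p = 0.000257). Efnb2, an ephrin of epithelium and vessels, had 26.6 and 31.4 in EGFP+ against 1198 and 2338 in tdTomato+ cells (-5.81 ± 0.66, adjusted p = 0.000684). The call of Mbp (adjusted p = 0.0702, 0.182, 0.127 and 0.146) was lost with any 1 of the 4 libraries left out. Mbp (adjusted p = 0.0535) lost the call with only the 4 libraries in the fit. Mbp (adjusted p = 0.0562) lost the call after quantile normalization. Mbp (adjusted p = 0.0615) lost the call after rescaling without the 20 most abundant genes. Mbp (adjusted p = 0.0899) lost the call with a pseudocount of 0.1. Blocking on mouse ended the call of Mbp (adjusted p = 0.0697).

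Keratinocyte genes were lower in EGFP+ cells almost throughout. Shares called lower were 81.8% for basal, 94.7% for suprabasal and cornified and 71.4% for hair follicle genes, against 12.5% over all genes. For sebocyte and fibroblast genes they were 36.4% and 59.1%. Of 11 basal keratinocyte genes, 9 were lower and 1 (Cdh3) higher (1, 0, 0 and 1 with 1 library left out) in EGFP+ cells, and of 19 suprabasal and cornified genes 18 were lower. Krt14, a keratin of the basal layer, had 203 and 233 in EGFP+ against 100890 and 136010 in tdTomato+ cells (-9.07 ± 0.23, adjusted p = 1.46e-06). Krt10, a keratin of the suprabasal layers, had 236 and 167 in EGFP+ against 12359 and 18394 in tdTomato+ cells (-6.24 ± 0.37, adjusted p = 2.53e-05). Dmkn, dermokine, a secreted epidermal protein, had 52.4 and 92.2 in EGFP+ against 40156 and 45811 in tdTomato+ cells (-9.25 ± 0.27, adjusted p = 2.23e-06). Of 21 hair follicle genes 15 were lower, led by Krt17 at 88.2 and 159 in EGFP+ against 51520 and 48707 in tdTomato+ cells (-8.71 ± 0.33, adjusted p = 6.39e-06), and of 11 sebocyte genes 4 were lower (2, 2, 4 and 2 with 1 library left out). Of 22 fibroblast and dermal matrix genes, 13 were lower (8, 6, 7 and 8 with 1 library left out) and 0 higher. Dcn, decorin, a proteoglycan of dermal fibroblasts, had 4.16 and 11.4 in EGFP+ against 7967 and 8617 in tdTomato+ cells (-10.02 ± 0.48, adjusted p = 1.27e-05), and Col1a1, a chain of type I collagen, 20.8 and 3.8 in EGFP+ against 1418 and 1474 in tdTomato+ cells (-7.14 ± 0.91, adjusted p = 0.00121). Sparc, a matrix protein on the same list, was high in both, at 6565 and 5624 in EGFP+ against 8051 and 9173 in tdTomato+ cells, and was not called (adjusted p = 0.19). Summed over each list, the EGFP+ level was 1.43% and 1.81% of the tdTomato+ level for basal keratinocyte genes, 0.579% and 0.324% for suprabasal genes and 16.4% and 11.3% for fibroblast genes in mice 1 and 2. The basal sum in EGFP+ cells came mostly from Dst (1511 and 2732, not called, but called with mouse as a block at an adjusted p of 0.0233) and Cdh3, and the fibroblast sum from Sparc, while Krt14 itself stood at 203 and 233.

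Genes of vessels and immune cells called in the fit of all 8 libraries were lower in EGFP+ cells. Of 20 genes of macrophages, Langerhans and dendritic cells, 5 were lower (1, 1, 2 and 1 with 1 library left out, 2 with only the 4 libraries in the fit, 3 after rescaling without the 20 most abundant genes, 3 with TMM scaling, 2 with a pseudocount of 0.1, 2 with no filter, 9 in edgeR, 10 in DESeq2) and 0 higher, and their summed level was 16370 in tdTomato+ replicate 1 and 4096.4 in replicate 2. Cd207, langerin, the marker of Langerhans cells, had 0.832 and 0 in EGFP+ against 1237 and 271 in tdTomato+ cells, a ratio of 1904 (95% exact interval 341 to 75235) (adjusted p = 0.00132). Cd74, the invariant chain of antigen presenting cells, had 304 and 91.3 in EGFP+ against 6548 and 1323 in tdTomato+ cells (-4.13 ± 1.20, adjusted p = 0.0445). Lyz2, a lysozyme of macrophages and neutrophils, had 1910.2 in tdTomato+ replicate 1 and 0 in replicate 2, and 16.6 and 51.3 in EGFP+ cells. From the T and NK cell list, 9 of 13 genes were lower (3, 3, 3 and 3 with 1 library left out) and 0 higher, with sums of 2656.5 and 2997.3 in tdTomato+ cells. These sums include 908 and 1070.5 from Skint1, which keratinocytes make, and Thy1, which is also on the fibroblast list. Cd3g, a chain of the T cell receptor complex, had 0 and 1.9 in EGFP+ against 373 and 495 in tdTomato+ cells, a ratio of 476 (95% exact interval 131 to 3939.6) (adjusted p = 0.00806), and Skint1, a gene known for selecting epidermal gamma delta T cells, 0 and 2.85 in EGFP+ against 908 and 1070.5 in tdTomato+ cells, a ratio of 732 (95% exact interval 249.96 to 3552) (adjusted p = 0.000821). Of 16 endothelial genes 1 was lower (0, 0, 0 and 1 with 1 library left out, 0 with mouse as a block, 2 with only the 4 libraries in the fit, 0 after quantile normalization, 0 with TMM scaling, 2 with a pseudocount of 0.1, 3 in edgeR, 3 in DESeq2), which was Pecam1 (0.832 and 0 in EGFP+ against 46.9 and 20 in tdTomato+ cells, adjusted p = 0.0366). The endothelial list summed to 132 and 99.8 in EGFP+ against 1003.5 and 218 in tdTomato+ cells. Its share lower was 6.25%, against 12.5% over all genes. In this list 1 gene was called higher with only the 4 libraries in the fit, and 1 after quantile normalization. Of 10 pericyte and smooth muscle genes 4 were lower (0, 1, 4 and 1 with 1 library left out, 2 with only the 4 libraries in the fit, 2 with TMM scaling), of 9 adipocyte genes 1 was (1, 1, 2 and 1 with 1 library left out, 0 in edgeR, 0 in DESeq2), and of 8 skeletal muscle, 4 mast cell and 2 erythrocyte genes 0 were called in limma, with 2 of the muscle genes (Acta1 and Mb) and 0 of the others at an unadjusted p under 0.05. The calls of Cd74 (adjusted p = 0.158, 0.354, 0.342 and 0.159), Cd3g (adjusted p = 0.0958, 0.0719, 0.0748 and 0.103) and Pecam1 (adjusted p = 0.117, 0.194, 0.14 and 0.106) were lost with any 1 of the 4 libraries left out. Cd74 (adjusted p = 0.0972) and Pecam1 (adjusted p = 0.0536) lost the call with only the 4 libraries in the fit. Cd74 (adjusted p = 0.0581) lost the call after rescaling without the 20 most abundant genes. Cd74 (adjusted p = 0.0781) and Pecam1 (adjusted p = 0.0527) lost the call with a pseudocount of 0.1. Cd74 (adjusted p = 0.0523) lost the call with no filter. Pecam1 (adjusted p = 0.13) lost the call after quantile normalization. Pecam1 (-1.61, adjusted p = 0.202) lost the call with TMM scaling, where the unit of the values also changed. Acta1 was called higher after quantile normalization (adjusted p = 0.0368). From the adipocyte list 1 gene was called higher after quantile normalization, after rescaling without the 20 most abundant genes, in edgeR and in DESeq2. Blocking on mouse ended the call of Pecam1 (adjusted p = 0.052). Shares called lower were 25% for macrophage, Langerhans and dendritic cells, 69.2% for T and NK cells and 40% for pericytes and smooth muscle. The adipocyte share lower, 11.1%, is near the 12.5% over all genes. The part of these cells in other results was not tested.

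**Figure D4:**
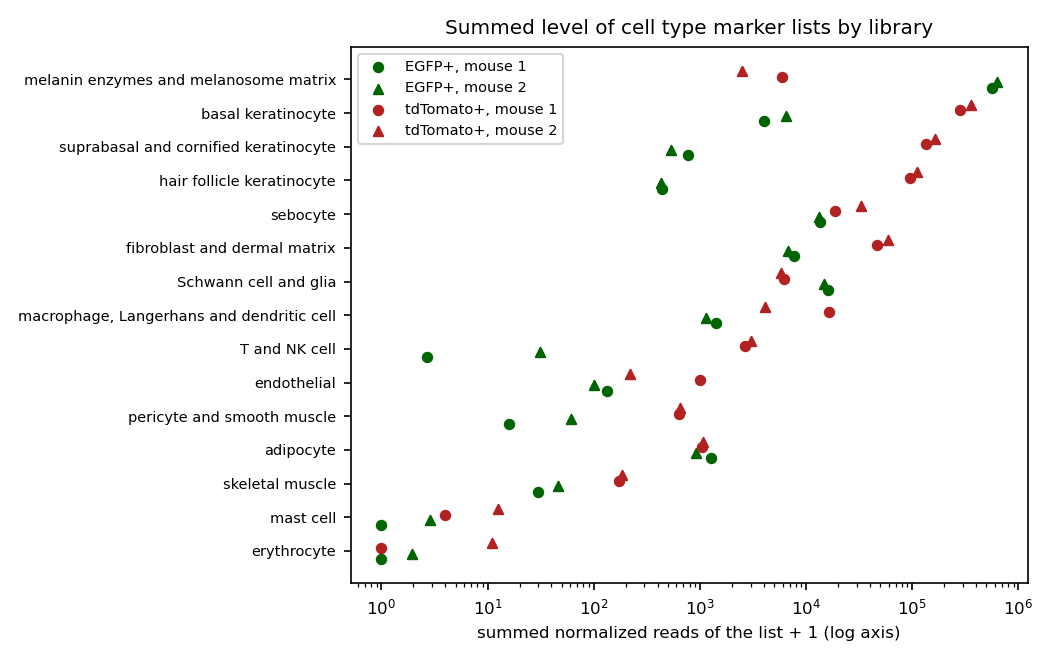
Summed normalized reads plus 1 (log axis) of 15 marker lists in the 2 EGFP+ (green) and 2 tdTomato+ (red) libraries, circles for mouse 1 and triangles for mouse 2. Melanin and glial lists are higher in green, keratinocyte, fibroblast and lymphocyte lists in red, and the macrophage and endothelial lists differ between the 2 red libraries.

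Many lysosomal genes were higher in EGFP+ cells. Of 36 tested lysosome and autophagy genes, 15 were higher (5, 3, 10 and 8 with 1 library left out, 5 with only the 4 libraries in the fit) and 0 lower, a share of 41.7% higher against 6.67% over all genes, with a median of 0.61. Members called lower numbered 1 with mouse as a block, 1 after quantile normalization, 1 with a stricter filter, 2 in edgeR and 3 in DESeq2. Cd63, a tetraspanin that helps sort Pmel into early melanosomes, had 74068 and 73087 in EGFP+ against 13102 and 10835 in tdTomato+ cells (2.63 ± 0.13, adjusted p = 1.66e-05). Sqstm1, the autophagy receptor p62, had 25270 and 26762 in EGFP+ against 4098 and 2915 in tdTomato+ cells (2.91 ± 0.18, adjusted p = 3.57e-05), and Hexa, a lysosomal hexosaminidase subunit, 2051 and 2451 in EGFP+ against 417 and 319.7 in tdTomato+ cells (2.62 ± 0.23, adjusted p = 0.00018). Of 20 subunits of the vacuolar ATPase, the proton pump of lysosomes and melanosomes, 7 were higher (3, 4, 4 and 4 with 1 library left out) and 3 lower (2, 1, 0 and 1 with 1 library left out, 1 with only the 4 libraries in the fit). Those shares were 35% higher and 15% lower, the latter near the share over all genes (6.67% higher and 12.5% lower). The alternative B subunit genes differed in direction. The B2 subunit gene Atp6v1b2 had 12991 and 13532 in EGFP+ against 1654 and 1442 in tdTomato+ cells (3.10 ± 0.17, adjusted p = 1.72e-05), whereas the B1 gene Atp6v1b1 had 9.98 and 0 in EGFP+ against 392 and 333 in tdTomato+ cells (-6.77 ± 1.29, adjusted p = 0.00807). Atp6v0a1, a membrane subunit, had 3988 and 4984 in EGFP+ against 244 and 335 in tdTomato+ cells (3.96 ± 0.28, adjusted p = 6.52e-05), and the epithelial subunit gene Atp6v1c2 20 and 17.1 in EGFP+ against 517 and 694 in tdTomato+ cells (-4.94 ± 1.03, adjusted p = 0.0117). The call of Atp6v1b1 (adjusted p = 0.0739 and 0.0862) was lost without tdTomato+ replicate 1 or tdTomato+ replicate 2. The call of Atp6v1c2 (adjusted p = 0.0936, 0.116, 0.0923 and 0.136) was lost with any 1 of the 4 libraries left out. Atp6v1b1 (adjusted p = 0.0647) lost the call with only the 4 libraries in the fit.

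Of 56 nuclear genes of the respiratory chain, 17 were lower (13, 3, 11 and 3 with 1 library left out, 5 with only the 4 libraries in the fit, 3 after quantile normalization, 3 after rescaling without the 20 most abundant genes, 10 in edgeR) and 2 higher (0, 0, 0 and 0 with 1 library left out, 1 with mouse as a block, 1 with only the 4 libraries in the fit, 5 after quantile normalization, 7 after rescaling without the 20 most abundant genes, 1 with a pseudocount of 0.1, 1 with no filter, 1 in edgeR), with a median of -0.47 against -0.27 over all genes. Cox6c, a subunit of complex IV, had 6780.2 and 5391 in EGFP+ against 12063 and 12383 in tdTomato+ cells (-1.02 ± 0.15, adjusted p = 0.00278), and the 2 that were higher, the flavoprotein Sdha of complex II and Ndufs1 of complex I, had 3455 and 3427 in EGFP+ against 1677 and 1928 in tdTomato+ cells (0.94 ± 0.21, adjusted p = 0.0157) and 2125 and 1839 in EGFP+ against 1333 and 1238 in tdTomato+ cells (0.62 ± 0.19, adjusted p = 0.0497). Of 22 glycolysis genes, 3 were higher (0, 0, 0 and 1 with 1 library left out, 0 with only the 4 libraries in the fit, 8 after quantile normalization, 7 after rescaling without the 20 most abundant genes) and 2 lower (1, 0, 1 and 0 with 1 library left out, 1 with only the 4 libraries in the fit, 4 in DESeq2), shares of 13.6% and 9.09% against 6.67% and 12.5% over all genes. Of the hexokinases, Hk1 was higher at 1065 and 1208 in EGFP+ against 188 and 427 in tdTomato+ cells (2.00 ± 0.46, adjusted p = 0.017) and Hk2 lower at 455 and 653 in EGFP+ against 1923 and 3062 in tdTomato+ cells (-2.15 ± 0.38, adjusted p = 0.00563). Of 27 genes of cholesterol and fatty acid synthesis, 9 were higher (2, 2, 4 and 4 with 1 library left out, 5 with only the 4 libraries in the fit, 14 after quantile normalization) and 1 lower (0, 0, 2 and 0 with 1 library left out, 2 with mouse as a block, 0 with only the 4 libraries in the fit). Dhcr7, the last enzyme of cholesterol synthesis, had 2224 and 2203 in EGFP+ against 334 and 358 in tdTomato+ cells (2.68 ± 0.22, adjusted p = 0.000141). Scd1, a desaturase that sebocytes make in quantity, was the 1 lower gene, at 1250.1 and 1261 in EGFP+ against 2882 and 9557 in tdTomato+ cells (-2.06 ± 0.52, adjusted p = 0.0251). Of 14 barrier lipid genes, 4 were lower (2, 1, 1 and 1 with 1 library left out, 2 with a pseudocount of 0.1) and 1 higher (0, 0, 2 and 1 with 1 library left out, 0 with only the 4 libraries in the fit, 2 after quantile normalization, 3 after rescaling without the 20 most abundant genes, 2 in DESeq2), the glucosylceramide synthase gene Ugcg at 2297 and 1718 in EGFP+ against 205 and 25.7 in tdTomato+ cells (4.74 ± 0.77, adjusted p = 0.00384). The calls of Sdha (adjusted p = 0.102, 0.112, 0.101 and 0.0815) and Ndufs1 (adjusted p = 0.144, 0.0793, 0.0594 and 0.107) were lost with any 1 of the 4 libraries left out. The call of Hk1 (adjusted p = 0.127, 0.172 and 0.133) was lost without EGFP+ replicate 1, EGFP+ replicate 2 or tdTomato+ replicate 1. The calls of Hk2 (adjusted p = 0.0877, 0.0586 and 0.104) and Scd1 (adjusted p = 0.191, 0.209 and 0.181) were lost without EGFP+ replicate 1, EGFP+ replicate 2 or tdTomato+ replicate 2. The call of Ugcg (adjusted p = 0.0857 and 0.0807) was lost without EGFP+ replicate 1 or EGFP+ replicate 2. Ndufs1 (adjusted p = 0.0771), Hk1 (adjusted p = 0.0803), Scd1 (adjusted p = 0.134) and Ugcg (adjusted p = 0.0821) lost the call with only the 4 libraries in the fit. Ndufs1 (adjusted p = 0.0507) lost the call with a pseudocount of 0.1. Ndufs1 (adjusted p = 0.0556) lost the call with no filter. Ndufs1 (adjusted p = 0.053) lost the call in edgeR. Blocking on mouse ended the call of Ndufs1 (adjusted p = 0.0675). Shares higher and lower were 3.57% and 30.4% for respiratory chain genes and 33.3% and 3.7% for cholesterol and fatty acid genes. Barrier lipid genes had 7.14% higher, near the 6.67% over all genes, and 28.6% lower, against 12.5%.

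Of 26 redox genes, 5 were higher and 8 lower (5, 5, 5 and 4 with 1 library left out). That is 19.2% higher and 30.8% lower, against 6.67% and 12.5% over all genes. Gstp1, a glutathione transferase, had 54309 and 50279 in EGFP+ against 6552 and 5671 in tdTomato+ cells (3.10 ± 0.33, adjusted p = 0.000553). Gclc, which makes the glutathione precursor, and Nfe2l2, the NRF2 factor, were higher at 985 and 980.2 in EGFP+ against 305 and 293 in tdTomato+ cells (1.71 ± 0.28, adjusted p = 0.00378) and 5702 and 4942 in EGFP+ against 2507 and 2508 in tdTomato+ cells (1.08 ± 0.16, adjusted p = 0.00262). Nqo1, a quinone reductase known as an NRF2 target, lay the other way at 15.8 and 8.56 in EGFP+ against 993 and 1272 in tdTomato+ cells (-6.47 ± 1.15, adjusted p = 0.00593), as did the peroxiredoxin Prdx5 at 1000.6 and 1009.7 in EGFP+ against 5380.5 and 5585 in tdTomato+ cells (-2.45 ± 0.19, adjusted p = 8.83e-05) and the metallothionein Mt1 at 28382 and 23077 in EGFP+ against 64250 and 61741 in tdTomato+ cells (-1.30 ± 0.17, adjusted p = 0.0015). The call of Nqo1 (adjusted p = 0.0767, 0.115, 0.0942 and 0.128) was lost with any 1 of the 4 libraries left out. The call of Mt1 (adjusted p = 0.0526) was lost without tdTomato+ replicate 2.

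Of 33 cell cycle genes, 1 was higher and 4 lower (5, 1, 2 and 1 with 1 library left out, 7 in DESeq2), shares of 3.03% and 12.1% against 6.67% and 12.5% over all genes. Cdk2, which lies beside Pmel in the genome and is known as an MITF target, had 12616 and 10367 in EGFP+ against 842 and 602 in tdTomato+ cells (4.00 ± 0.21, adjusted p = 1.67e-05), with no overlap. Mki67, a proliferation marker, had 143 and 44.7 in EGFP+ against 1216 and 1240.3 in tdTomato+ cells (-3.92 ± 0.79, adjusted p = 0.0101), with EGFP+ replicate 1 above replicate 2. Of 16 Bcl2 family genes, 2 were higher (1, 1, 2 and 3 with 1 library left out, 1 with only the 4 libraries in the fit, 4 after rescaling without the 20 most abundant genes) and 3 lower (2, 1, 2 and 1 with 1 library left out), shares of 12.5% and 18.8% against 6.67% and 12.5% over all genes. Bcl2 itself, which protects melanocytes from death, had 1837 and 2638 in EGFP+ against 379 and 236 in tdTomato+ cells (2.88 ± 0.33, adjusted p = 0.000796), and Pmaip1, the death-promoting NOXA, 46.6 and 15.2 in EGFP+ against 1608 and 1175 in tdTomato+ cells (-5.63 ± 0.51, adjusted p = 0.00022). For p53 targets and repair genes the shares were 0% higher and 16% lower, near the 6.67% and 12.5% over all genes. Of 25 p53 targets and repair genes, 4 were lower (2, 2, 3 and 1 with 1 library left out) and 0 higher, among them Phlda3 at 205 and 301 in EGFP+ against 1707 and 1426 in tdTomato+ cells (-2.65 ± 0.28, adjusted p = 0.000484). The call of Mki67 (adjusted p = 0.0547, 0.152, 0.124 and 0.154) was lost with any 1 of the 4 libraries left out.

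Inflammatory and stress genes were mostly lower in EGFP+ cells. Of 22 inflammatory cytokines and chemokines, 18 were lower and 0 higher in EGFP+ cells, with a median of -7.11. Ccl27a, a skin chemokine that attracts T cells, had 41.6 and 81.8 in EGFP+ against 11665 and 7837 in tdTomato+ cells (-7.33 ± 0.37, adjusted p = 1.66e-05), and Cxcl14, an epithelial chemokine, 213 and 176 in EGFP+ against 3621 and 4616 in tdTomato+ cells (-4.39 ± 0.26, adjusted p = 2.53e-05). Of 25 immediate early and dissociation genes, which rise when tissue is taken apart, 16 were lower (9, 10, 9 and 7 with 1 library left out) and 0 higher, and their sum was 152190 and 185680 in EGFP+ against 437650 and 452920 in tdTomato+ cells. Dusp1, a phosphatase induced by stress, had 2229.8 and 1907 in EGFP+ against 31341 and 25459 in tdTomato+ cells (-3.78 ± 0.17, adjusted p = 1.02e-05), and Egr1, an early growth response factor, 1634 and 1414 in EGFP+ against 13811 and 18192 in tdTomato+ cells (-3.38 ± 0.51, adjusted p = 0.0027). The part of this response in other genes was not tested. Called lower were 81.8% of cytokines and chemokines and 64% of immediate early and dissociation genes, against 12.5% over all genes. Of 21 interferon response genes, 5 were higher (2, 1, 6 and 2 with 1 library left out, 2 with only the 4 libraries in the fit, 8 after quantile normalization) and 2 lower (1, 2, 1 and 0 with 1 library left out). Bst2, tetherin, had 760.2 and 1406 in EGFP+ against 231 and 208 in tdTomato+ cells (2.23 ± 0.32, adjusted p = 0.0023), and Irf1 and Cxcl10 lay the other way, at 2934 and 1813 in EGFP+ against 7899 and 8755 in tdTomato+ cells (-1.85 ± 0.27, adjusted p = 0.00235) and 678 and 1437 in EGFP+ against 5709 and 6056 in tdTomato+ cells (-2.57 ± 0.45, adjusted p = 0.00559). Of 15 genes of class I antigen presentation 2 were higher (2, 1, 2 and 2 with 1 library left out, 1 with only the 4 libraries in the fit), the endoplasmic reticulum chaperones Calr and Pdia3, and 1 lower (1, 0, 0 and 1 with 1 library left out, 0 with only the 4 libraries in the fit), the immunoproteasome subunit Psmb9. Shares higher and lower were 23.8% and 9.52% for interferon response genes and 13.3% and 6.67% for class I genes. Over all genes they were 6.67% and 12.5%. Calr had 14595 and 16566 in EGFP+ against 6337 and 6040.3 in tdTomato+ cells (1.33 ± 0.17, adjusted p = 0.00132). The call of Egr1 (adjusted p = 0.0626, 0.0814, 0.0629 and 0.1) was lost with any 1 of the 4 libraries left out. The calls of Bst2 (adjusted p = 0.0546) and Irf1 (adjusted p = 0.0696) were lost without tdTomato+ replicate 2. The call of Cxcl10 (adjusted p = 0.0844, 0.0894 and 0.117) was lost without EGFP+ replicate 1, tdTomato+ replicate 1 or tdTomato+ replicate 2. The call of Pdia3 (adjusted p = 0.0723) was lost without EGFP+ replicate 2. The call of Psmb9 (adjusted p = 0.104 and 0.078) was lost without EGFP+ replicate 2 or tdTomato+ replicate 1. Pdia3 (adjusted p = 0.0623) and Psmb9 (adjusted p = 0.0619) lost the call with only the 4 libraries in the fit.

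Of 26 Wnt pathway genes, 3 were higher (2, 1, 3 and 3 with 1 library left out) and 7 lower (4, 3, 4 and 4 with 1 library left out). Ctnnb1, beta-catenin, had 16949 and 20384 in EGFP+ against 6198 and 7626 in tdTomato+ cells (1.43 ± 0.17, adjusted p = 0.000788), and Axin2, a feedback target of the pathway, 254 and 309 in EGFP+ against 56.7 and 95.6 in tdTomato+ cells (1.91 ± 0.50, adjusted p = 0.0293). Lgr5, a follicle stem cell receptor, had 16.6 and 20 in EGFP+ against 1052 and 1697 in tdTomato+ cells (-6.12 ± 0.58, adjusted p = 0.000279). Of 18 Notch genes, 5 were lower (4, 4, 4 and 3 with 1 library left out) and 2 higher (0, 0, 0 and 0 with 1 library left out, 1 with only the 4 libraries in the fit). Jag1 and Jag2, Notch ligands, had 229.6 and 225 in EGFP+ against 1153 and 1490.1 in tdTomato+ cells (-2.52 ± 0.34, adjusted p = 0.00164) and 1.66 and 0.951 in EGFP+ against 218 and 323 in tdTomato+ cells, a ratio of 196 (95% exact interval 66.6 to 953) for Jag2 (adjusted p = 0.00221). Hey2, a Notch target, had 222 and 106 in EGFP+ cells and 0 reads in both tdTomato+ libraries, at least 96.3-fold higher (adjusted p = 0.0214). Of 13 hedgehog genes, 4 were lower (2, 2, 2 and 1 with 1 library left out, 2 with only the 4 libraries in the fit, 2 with a pseudocount of 0.1) and 0 higher, led by the coreceptor Gas1 at 121 and 228 in EGFP+ against 1088 and 1767 in tdTomato+ cells (-3.05 ± 0.41, adjusted p = 0.00161). The call of Axin2 (adjusted p = 0.0861 and 0.136) was lost without EGFP+ replicate 1 or EGFP+ replicate 2. The call of Hey2 (adjusted p = 0.174, 0.147, 0.153 and 0.186) was lost with any 1 of the 4 libraries left out. Axin2 (adjusted p = 0.0637) lost the call with only the 4 libraries in the fit. Blocking on mouse ended the call of Axin2 (adjusted p = 0.0509). Shares higher and lower were 12% and 26.9% for Wnt, 11.1% and 27.8% for Notch and 0% and 30.8% for hedgehog genes. Over all genes the shares were 6.67% and 12.5%.

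**Figure D5:**
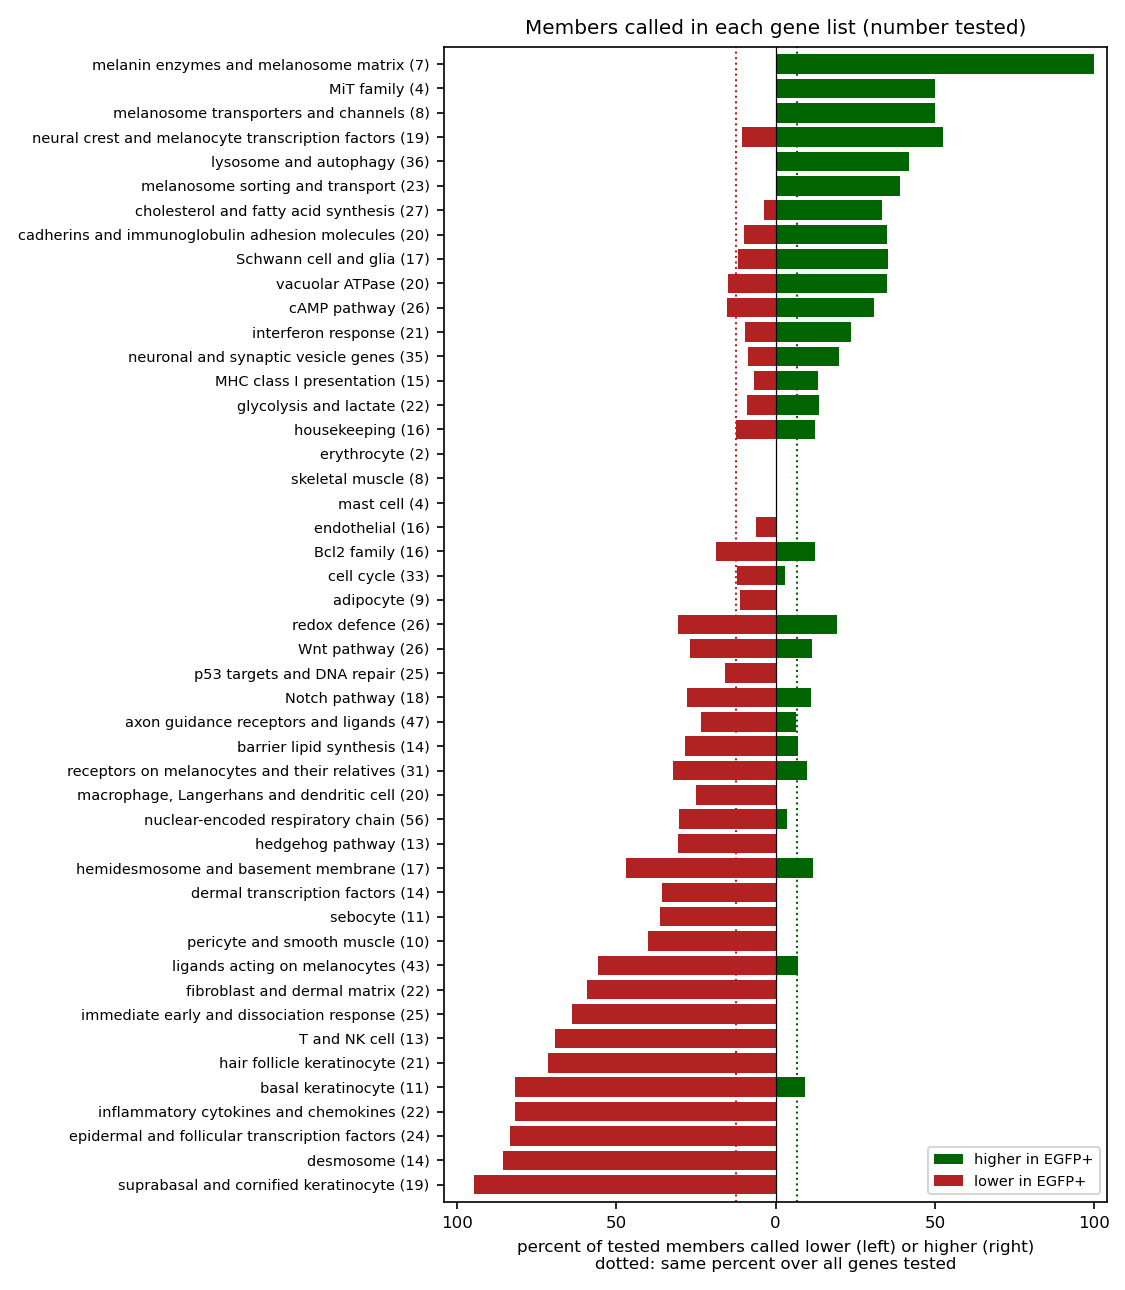
Share of tested members called higher (green, to the right) or lower (red, to the left) in EGFP+ cells for each of 47 gene lists, with the number tested in brackets, and dotted lines at the shares over all genes (6.67% higher and 12.5% lower). The bars run from 7 of 7 melanin genes higher at the top to 18 of 19 suprabasal and cornified genes lower at the bottom.

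By size, the genes with the largest rises were not all pigment genes. The 15 with the largest rises were Wscd1, Car14, Trpm1, Plxnc1, Ednrb, Tspan10, Slc38a1, Fam71f1, Tyrp1, Alx1, Arnt2, Mcoln3, Drd1, Gpr143 and Sox10. Wscd1 had 843 and 1145 in EGFP+ against 0 and 2.85 in tdTomato+ cells, a ratio of 847 (95% exact interval 234 to 7001) (adjusted p = 0.000154). Car14, a carbonic anhydrase, had 1994 and 1612 in EGFP+ against 18.6 and 0 in tdTomato+ cells (8.66 ± 1.12, adjusted p = 0.00132). Mcoln3, a cation channel of endosomes and lysosomes whose mutation is known from a mouse with a diluted coat, had 12470 and 11260 in EGFP+ against 229 and 17.1 in tdTomato+ cells (7.52 ± 0.93, adjusted p = 0.00107). Drd1, a dopamine receptor, had 793 and 623 in EGFP+ against 1.96 and 4.28 in tdTomato+ cells (7.48 ± 0.73, adjusted p = 0.00033), and Alx1, a homeobox factor of facial development, 1368 and 1168 in EGFP+ against 10.8 and 2.85 in tdTomato+ cells (7.55 ± 0.70, adjusted p = 0.000256). Fam71f1 had 189 and 261 in EGFP+ cells and 0 reads in tdTomato+ cells, at least 128-fold higher (adjusted p = 0.00103). The calls of Slc38a1 (adjusted p = 0.0696 and 0.0858) and Car14 (adjusted p = 0.0503 and 0.0535) were lost without EGFP+ replicate 1 or EGFP+ replicate 2. The call of Mcoln3 (adjusted p = 0.0516) was lost without EGFP+ replicate 2. Slc38a1 (adjusted p = 0.069), Car14 (adjusted p = 0.056) and Mcoln3 (adjusted p = 0.0535) lost the call with only the 4 libraries in the fit.

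The 15 largest falls were Col17a1, Plbd1, Ifi202b, Igfl3, Scel, Clca3a2, Serpinb2, Plet1, Esrp1, Fcgbp, Aldh3b2, Il1r2, Aspn, Serpina3h and Dcn. Plbd1, a phospholipase B-like gene, had 0 reads in EGFP+ and 2659.5 and 1591 in tdTomato+ cells, at least 1672-fold lower (adjusted p = 3.73e-05). Scel, sciellin, a precursor of the cornified envelope, had 2.5 and 3.8 in EGFP+ against 4082 and 8462 in tdTomato+ cells (-10.49 ± 0.57, adjusted p = 1.95e-05). Esrp1, a splicing factor of epithelial cells, had 0.832 and 0 in EGFP+ against 1634 and 1693 in tdTomato+ cells, a ratio of 3738 (95% exact interval 670.3 to 147680) (adjusted p = 6.8e-05). Serpinb2, a protease inhibitor, had 7.49 and 6.66 in EGFP+ against 9949 and 12490 in tdTomato+ cells (-10.43 ± 0.53, adjusted p = 1.66e-05). Among the smallest p values outside the lists were those of Plet1, Fxyd3, Tnfrsf18, S100a16, Apoc1, Cldn1 and Apoe, which were lower, and Tacc1 and Sdcbp, which were higher. Apoe, apolipoprotein E, had 8261 and 13276 in EGFP+ against 206180 and 255910 in tdTomato+ cells (-4.45 ± 0.22, adjusted p = 1.66e-05). Sdcbp, syntenin, an adaptor of exosomes and melanosome proteins, had 51768 and 51364 in EGFP+ against 9207 and 7906 in tdTomato+ cells (2.60 ± 0.13, adjusted p = 1.66e-05), and Tacc1, a coiled-coil centrosome protein, 4639 and 4036 in EGFP+ against 132 and 124 in tdTomato+ cells (5.07 ± 0.23, adjusted p = 1.02e-05). The call of Aldh3b2 (adjusted p = 0.0553, 0.0625, 0.0618 and 0.0786) was lost with any 1 of the 4 libraries left out.

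Of 16 housekeeping genes, 2 were higher (Gusb and Sdha) (0, 0, 1 and 1 with 1 library left out, 1 with only the 4 libraries in the fit) and 2 lower (Rpl13a and Hprt) (1, 0, 1 and 0 with 1 library left out, 0 with only the 4 libraries in the fit, 1 after quantile normalization, 1 after rescaling without the 20 most abundant genes, 1 in edgeR), with a median of -0.02. These housekeeping shares were 12.5% higher and 12.5% lower, against 6.67% and 12.5% over all genes. Hprt had 3892 and 2921 in EGFP+ against 5365 and 5292 in tdTomato+ cells (-0.66 ± 0.18, adjusted p = 0.0352), and Gusb, also a lysosomal enzyme, 1183 and 960.3 in EGFP+ against 364 and 208 in tdTomato+ cells (1.95 ± 0.33, adjusted p = 0.00496). The call of Hprt (adjusted p = 0.138, 0.121 and 0.14) was lost without EGFP+ replicate 2, tdTomato+ replicate 1 or tdTomato+ replicate 2. The call of Rpl13a (adjusted p = 0.0728, 0.122 and 0.124) was lost without EGFP+ replicate 1, EGFP+ replicate 2 or tdTomato+ replicate 2. The call of Gusb (adjusted p = 0.0694 and 0.0566) was lost without EGFP+ replicate 1 or EGFP+ replicate 2. Hprt (adjusted p = 0.111), Rpl13a (adjusted p = 0.0568) and Gusb (adjusted p = 0.0521) lost the call with only the 4 libraries in the fit. Hprt (-0.39, adjusted p = 0.162) lost the call after quantile normalization. Hprt (-0.36, adjusted p = 0.184) lost the call after rescaling without the 20 most abundant genes. Hprt (adjusted p = 0.0703) lost the call in edgeR. In the GRCm38 annotation Mlana lies on chromosome 19 from 29697824 to 29708634 on the plus strand, Trpm1 on chromosome 7 from 64153835 to 64269775 on the plus strand, Krt14 on chromosome 11 from 100203162 to 100207548 on the minus strand and Dcn on chromosome 10 from 97479609 to 97518143 on the plus strand.

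The same contrast in the UVB-treated mice called 3240 genes, of which 2025 were called in the same direction here. Whether the contrast itself differed between untreated and treated skin was tested as the difference of the 2 contrasts, and 1 gene passed (0.00553% of 18070), with 1814 at an unadjusted p under 0.05. That gene was Odc1, ornithine decarboxylase, the first enzyme of polyamine synthesis. Without UV it had 6386 and 6795 in EGFP+ against 3238 and 3143 in tdTomato+ cells (1.05 ± 0.21, adjusted p = 0.0101). The call of Odc1 (adjusted p = 0.0809, 0.112, 0.0855 and 0.115) was lost with any 1 of the 4 libraries left out. With UVB it had 3498 and 2268 in EGFP+ against 13996 and 12662 in tdTomato+ cells. The contrasts differed by 3.29 ± 0.30 (adjusted p = 0.0496). The next 4 by p did not pass. They were Ctsl, a lysosomal protease (2.19 ± 0.22, adjusted p = 0.0598), Krt10 (-4.78 ± 0.52, adjusted p = 0.0706), the protease inhibitor gene Serpine2 (5.46 ± 0.63, adjusted p = 0.0788) and Crabp2, a retinoic acid binding protein (6.43 ± 0.76, adjusted p = 0.0788). The difference of contrasts was 2.13 ± 0.64 for Tyr (adjusted p = 0.361) and -0.09 ± 0.59 for Mitf (adjusted p = 0.963). The count depended on the setting: the difference of contrasts passed for 14 genes after quantile normalization, 0 with a pseudocount of 0.1, 75 in edgeR and 291 in DESeq2, and for 0, 0, 779 and 290 with 1 library left out. Odc1 lost its call without EGFP+ replicate 1, EGFP+ replicate 2 or tdTomato+ replicate 2 (adjusted p = 0.397, 0.466 and 0.0521).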

How the data were processed

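RNA of sorted cells from mouse back skin was sequenced with a kit that does not mark strand, so overlapping antisense genes and close paralogs are uncertain. The submitters' processing notes name TopHat2 2.0.12, Cufflinks 2.2.1, FastQC and DESeq2 1.14.1 without their roles, and the build mm10. The gene counting step is not given in the sources used here. Each deposited value is a normalized signal per gene, and all 195368 values are whole reads (within 0.01) once multiplied by 1 factor per library (0.701 to 1.20). Factors were recovered from the values. Of 24421 gene rows, 27 carry a date in place of a symbol and are named nowhere.

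log2(value + 1) was fitted with limma 3.58.1 (trend) in R 4.3.3 with a mean per group over all 8 libraries, keeping genes whose mean reached 1 in some group, and p was adjusted by Benjamini-Hochberg over all 18070 tested genes. Fold changes on this scale understate low genes. A gene with 0 reads in 1 group is given as a bound against 3 reads over the group, and 1 with 1 to 3 reads as a ratio with an exact 95% interval that covers counting error only. An exact permutation test of 2 against 2 cannot go below p = 0.333, and n = 2 animals. The fit was also run on simulated counts with independent libraries and as many rises as falls. Those lack the shared mice and the uneven split of calls, so the run does not give the error rate in these data. edgeR 4.0.16 and DESeq2 1.42.0 on the recovered counts, other scalings, pseudocounts and filters, a mouse block and leaving out each library were alternatives. The numbers pair the samples because both cell fractions come from the same mouse. Deviations of a mouse correlated between its fractions at 0.0873 (mice 1 and 2) and 0.0562 (mice 3 and 4).

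Genes named were Mitf, Tyr, Dct, Mlana, Kit, Krt14 and Dcn, up to 5 tested members per list with the smallest p and each called member against its list's majority, the members of the receptor, ligand, transcription factor and cAMP lists, the 15 largest rises and falls with a mean of at least 20, 10 genes in no list with the smallest p, and 5 for the difference of contrasts. Any other gene was chosen once its values had been seen. Some genes that this rule names are not reported here. The members and lists were chosen with earlier results of these data known.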

Additional observations from a re-analysis of the deposited data

Results flagged for a closer look

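The EGFP+ minus tdTomato+ difference of Odc1 was not the same in untreated and UVB-treated skin, by a test of the difference between the 2 contrasts: 3.29 on the log2 scale (adjusted p = 0.0496 in limma). Odc1 was higher in EGFP+ cells in both untreated mice and lower in both treated mice. The adjusted p ranged from 3.61e-14 in DESeq2 to 0.466 without EGFP+ replicate 2.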

How the results depend on the processing

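For the difference between EGFP+ and tdTomato+ cells without UV, genes higher in EGFP+ cells numbered 1206, against 792 with only the 4 libraries without UV in the fit (2 residual degrees of freedom) and 2013 after quantile normalization. In the other settings run on all 8 libraries the count lay within 1.5 times. With 1 library left out the genes higher ranged from 413 to 948 and the genes lower from 957 to 2216, against 2262. The difference of contrasts passed for 1 gene, for 14 after quantile normalization, 0 with a pseudocount of 0.1, 75 in edgeR and 291 in DESeq2, and for 0 to 779 with 1 library left out. At a pseudocount of 0.1 it was under an unadjusted p of 0.05 for 1853 genes, and without EGFP+ replicate 1 or 2 for 1645 and 1551. It was not run under the other scalings and filters. The causes were not tested. An arm with 1 library left was assumed to vary like the other groups.

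With the pairing by mouse as a replicate block, 1169 genes were higher, 2119 lower, 3067 calls were shared with the unblocked fit, and the difference of contrasts passed for 1 gene. Leaving aside Sncg, Elavl4 and Ank3, among genes named the block ended the calls of Axin2, Gfra1, Mbp, Ndufs1, Pecam1 and Pomc. Dst and Hes1 gained a call.

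Of 1316 counts of list members compared, 280 moved by more than 1.5 times. Of genes without a call in limma, Lyz2, Mfsd12, Tpcn2 and Xist changed sign. Lyz2 was at 1.09 with a pseudocount of 0.1, ranged from -5.97 to 4.92 with 1 library left out, and was called lower in edgeR (adjusted p = 0.0327). Over the same omissions Mfsd12 ranged from -3.35 to 1.13, Tpcn2 from -0.59 to 0.95 and Xist from -4.99 to 3.14. Tfec ranged from -1.28 to 0, and was also at 0 after quantile normalization. With 2 mice a group, a gene without a call is not shown to be equal.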

Other observations

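Per kilobase of exon, the most abundant transcript of the EGFP+ cells was Dct, at 128100 and 156700 normalized reads per kilobase. Ftl1, the ferritin light chain, followed at 90580 and 79150, and Lgals3, galectin 3, at 86270 and 79510. Of the pigment genes, Pmel stood at 43040 and 49330 and Tyrp1 at 38020 and 32880.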
